A study of Mus musculus with 8 samples.

Results

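The myosin light chain transcripts of the working heart were examined in fetal mice that lack type 3 deiodinase (DIO3), the enzyme that inactivates thyroid hormones. The genes were chosen by name: *Myl2*, *Myl3*, *Myl4* and *Myl7*, which encode the light chains of ventricular and atrial myosin, and *Mylk3*, which encodes the cardiac myosin light chain kinase. They are 5 of the 26590 gene symbols in the deposited table. Hearts of *Dio3+/+* and *Dio3-/-* fetuses on a C57BL/6J background were profiled by RNA sequencing, with 4 hearts per genotype and each RNA from an individual mouse. *Dio3-/-* fetuses lack the enzyme in every tissue, so a difference in their hearts is not specific to the loss of DIO3 in the heart. The sample titles place all 8 hearts at E13.5, whereas an age of E18.5 is entered for *Dio3-/-* hearts 3 and 4, and the study's Methods name yet another day. The design text describes the fetuses as male. The table gives, for each UCSC known-gene transcript (a row), the authors' mean of each genotype in RPKM (read numbers divided by transcript length and by the mapped reads of the library) and the coefficient of variation (CV, the SD divided by the mean) over the hearts of that genotype. Values for single hearts and read totals are not part of it. The hearts with the discordant age entry therefore could not be left out, overlap between single hearts could not be examined, and the depth of each sample could not be computed from it (the study's Methods state a range of aligned reads, not used here). *Dio3* itself averaged 0.35 RPKM (CV 1.23) with the wild-type allele and 0.13 RPKM (CV 0.76) without it, too low and too variable to check the genotype labels.

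Each myosin head of the sarcomere carries an essential and a regulatory light chain around the lever arm of its heavy chain. In the mouse heart, *Myl2* encodes the regulatory light chain of the ventricles (MLC-2v) and *Myl7* that of the atria (MLC-2a). *Myl3* encodes the essential light chain of the ventricles, which slow skeletal muscle also uses, and *Myl4* encodes the essential light chain of the atria, which is also made in the ventricles and in skeletal muscle before birth. The kinase encoded by *Mylk3* phosphorylates the regulatory light chain MLC-2v. Thyroid hormone is best known in the heart for its control of the myosin heavy chain genes. The chambers were not separated in these hearts, so atrial and ventricular are used here as what each gene is known for.

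The sequences upstream of *Myl3* and *Myl7* are shown first because these were the members with the highest ratio between the genotypes, a choice made after their values had been seen. They come from RefSeq (build GRCm38.p6) and run 5′ to 3′ on the strand of the gene. The build used by the authors is not given in the sources used here. *Myl3* lies on the plus strand and the stretch shown is chr9:110763428-110763645. It is the 250-base window before the RefSeq start without its last 32 bases, which GENCODE places inside a *Myl3* transcript. *Myl7* lies on the minus strand and the stretch shown is the whole 250-base window, chr11:5898783-5899032, which ends at a GENCODE transcript start. Capitals mark a CArG box, the sequence bound by serum response factor.
Myl3: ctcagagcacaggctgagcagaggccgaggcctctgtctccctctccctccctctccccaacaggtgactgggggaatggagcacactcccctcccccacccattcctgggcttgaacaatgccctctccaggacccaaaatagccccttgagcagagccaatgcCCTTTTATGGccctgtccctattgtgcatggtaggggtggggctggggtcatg
Myl7: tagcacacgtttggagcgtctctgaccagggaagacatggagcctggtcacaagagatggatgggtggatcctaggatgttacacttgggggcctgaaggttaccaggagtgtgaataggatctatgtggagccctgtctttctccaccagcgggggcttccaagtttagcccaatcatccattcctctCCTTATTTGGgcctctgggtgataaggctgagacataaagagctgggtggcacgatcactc
The capitals begin 85 bases before the RefSeq start in *Myl3* and 61 bases before it in *Myl7*. Of the 32851 upstream windows of 250 bases in the RefSeq table, 1.47% held a CArG box. No CArG box was found in the windows of *Myl2*, *Myl4* and *Mylk3*. The half-site of the thyroid hormone response element, AGGTCA, was searched on both strands. It occurred in 14.0% of all windows, once in a window of *Myl2* and in none of the windows of the other 4 genes. Neither of the 2 *Myl2* windows could be tied to a GENCODE transcript of that gene, so the half-site is not placed relative to a GENCODE start there. The motif GATAA was present in 22.6% of all windows and in a window of *Myl2*, *Myl3*, *Myl7* and *Mylk3*. Of these, only the *Myl7* match lay in a window that ends at a GENCODE transcript start. The *Myl3* match reached into the 32 bases left out above. The matches of *Myl2* and *Mylk3* lay in windows tied to no GENCODE transcript of those genes. MEF2 sites (2.92% of all windows) and TATAAA read on the strand of the gene (7.59%) were found for none of the 5. Apart from TATAAA, motifs were read on both strands, and the capitals overlap no other motif searched. These matches describe letters and not bound sites.

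The 4 light chains were among the most abundant transcripts of the hearts, and every member had a higher mean in *Dio3-/-* than in *Dio3+/+* hearts, by 10.7% to 29.2%, although *Myl4* and *Mylk3* took the opposite sign once both genotypes were centred on cardiomyocyte markers. None of these differences passed the test across all genes. In whole hearts, a change in the number of cells of a type and in the RNA per cell cannot be told apart. With limma fitted to the deposited means and CVs, 0 of the 5 genes passed an adjusted *P* value of 0.05 (their values lay between 0.139 and 0.489), against 2.29% of the 14657 gene symbols tested, each in its row with the highest mean (1.91% higher and 0.382% lower in *Dio3-/-* hearts). Over all transcript rows, 2.15% passed. Before adjustment 2 of the 5 were under 0.05, *Myl3* and *Myl7*, both higher in *Dio3-/-* hearts, against 19.7% of all gene symbols (15.2% higher and 4.46% lower). Of the 654 gene symbols above 100 RPKM, 205 were under 0.05 before adjustment, 159 higher and 46 lower. Welch's test from the same summaries gave 0 members after adjustment, against 0.184% of gene symbols, and 1 before it, *Myl7*, against 16.3%. A positive difference was also the more common one, at 63.3% of the gene symbols tested and 71.0% of the 1404 with a mean above 50 RPKM. The log2 fold changes of the members ranged from 0.15 to 0.37 with a median of 0.24, against a median of 0.04 over all gene symbols tested. Log2 fold changes are *Dio3-/-* minus *Dio3+/+* on the log2(RPKM + 0.5) scale, and only rows above 1 RPKM in at least 1 genotype were tested.

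*Myl2* was the most abundant member. Its mean was 3431.57 RPKM (CV 0.18) in *Dio3+/+* and 4058.35 RPKM (CV 0.07) in *Dio3-/-* hearts. It held rank 20 among all gene symbols in *Dio3+/+* hearts and rank 14 in *Dio3-/-* hearts. On the log2 scale the difference was 0.24 (SE 0.13, limma-adjusted *P* = 0.353). The 95% interval of the fold change ran from 0.969 to 1.44, which spans a small decrease and an increase. The means differed by 627 RPKM, less than the summed SDs of 902 RPKM.

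The atrial partner *Myl7* had a mean of 846.82 RPKM (CV 0.14) in *Dio3+/+* and 1066.12 RPKM (CV 0.10) in *Dio3-/-* hearts, ranks 80 and 58. Its log2 fold change was 0.33 (SE 0.11, unadjusted *P* = 0.0132, limma-adjusted *P* = 0.139). The 95% interval of the fold change was 1.06 to 1.49 before adjustment for the number of rows. The difference of 219 RPKM was slightly below the summed SDs of 225 RPKM. As the CVs are rounded, whether the bands of 1 SD around the means overlapped is not settled. Such bands do not give the range of the single hearts.

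Among the essential light chains, *Myl4* was the more abundant in both genotypes. Its highest row (uc007lwt.1) had a mean of 1515.65 RPKM (CV 0.14) in *Dio3+/+* and 1677.72 RPKM (CV 0.06) in *Dio3-/-* hearts, ranks 35 and 32. The log2 fold change of 0.15 (SE 0.10, limma-adjusted *P* = 0.489) was the smallest of the 5 genes. The other *Myl4* row (uc007lwv.1) had means of 1461.91 and 1666.31 RPKM and a log2 fold change of 0.19 (limma-adjusted *P* = 0.373). Rows of a gene share exons and are not independent measurements.

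*Myl3*, the ventricular essential light chain, showed the largest ratio of the members. Its mean was 704.26 RPKM (CV 0.18) in *Dio3+/+* and 910.03 RPKM (CV 0.08) in *Dio3-/-* hearts, ranks 104 and 76. The log2 fold change was 0.37 (SE 0.12, unadjusted *P* = 0.0132, limma-adjusted *P* = 0.14), with a 95% interval of the fold change from 1.07 to 1.56 before adjustment. By the deposited CVs, *Myl3* was the only member whose difference between the means, 206 RPKM, was larger than the summed SDs, 200 RPKM. The CVs are rounded, and within that rounding this comparison could go the other way for *Myl3* and for *Myl7*. Over all gene symbols tested, 2.27% had a log2 fold change at least as high as that of *Myl3*, and 18.3% had one at least as high as that of *Myl4*. Among the 1404 gene symbols with a mean above 50 RPKM, these shares were 2.56% and 24.8%.

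The kinase gene *Mylk3* was far less abundant than the light chains. Its highest row (uc009mpt.1) had a mean of 53.50 RPKM (CV 0.14) in *Dio3+/+* and 59.72 RPKM (CV 0.07) in *Dio3-/-* hearts, a difference of 0.16 on the log2 scale (SE 0.10, limma-adjusted *P* = 0.424). The other 2 rows gave 0.17 and 0.16, with means between 49.08 and 55.64 RPKM. *Myl2* was 64.1 times as abundant per length as *Mylk3* in *Dio3+/+* hearts and 68.0 times in *Dio3-/-* hearts. Increases of more than 1.29-fold for *Mylk3*, 1.30-fold for *Myl4*, 1.44-fold for *Myl2*, 1.49-fold for *Myl7* and 1.56-fold for *Myl3* lie above these unadjusted 95% intervals.

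**Figure D1:**
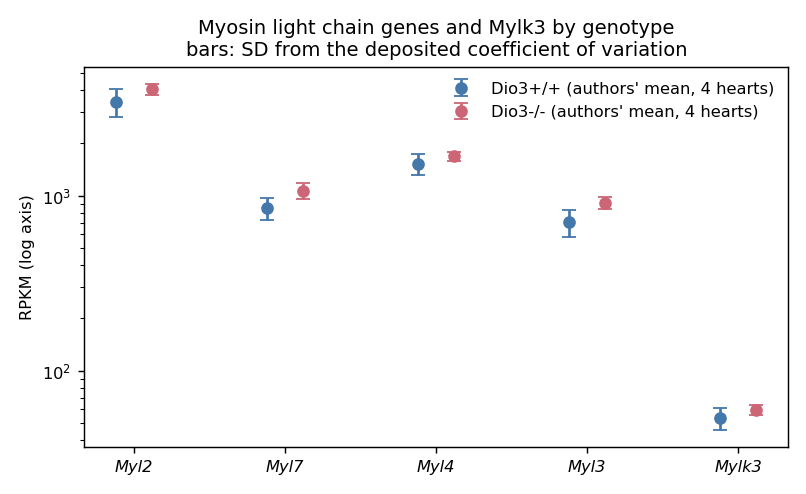
The vertical log axis shows RPKM for the 5 genes, with points at the authors' genotype means and bars of 1 SD calculated from the deposited CVs over 4 hearts. In RPKM, without centring on cardiomyocyte markers, which turns *Myl4* and *Mylk3*, all 5 *Dio3-/-* means lie above the *Dio3+/+* means, from 53.50 against 59.72 RPKM for *Mylk3* to 3431.57 against 4058.35 RPKM for *Myl2*, and the *Dio3+/+* bars are the longer ones.

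**Figure D2:**
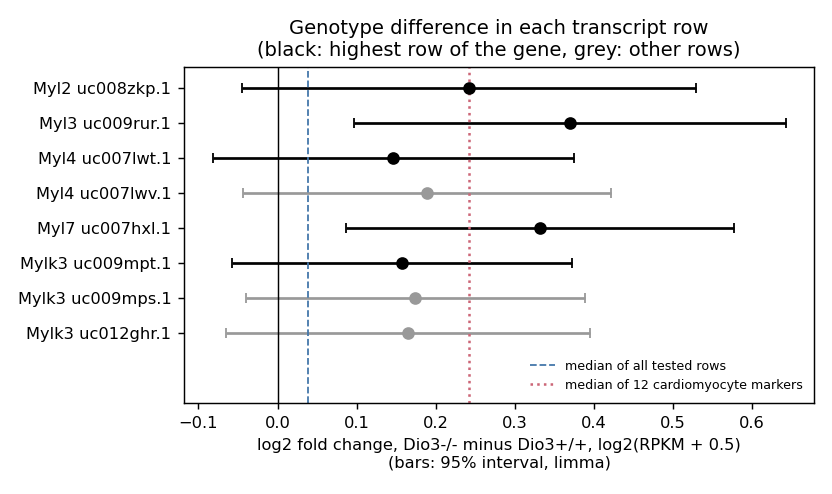
The horizontal axis shows the log2 fold change of each of the 8 transcript rows, with 95% intervals from limma, the highest row of a gene in black and the other 3 in grey. All points lie right of 0 (*Myl4* and *Mylk3* lie left of the cardiomyocyte marker line), the unadjusted intervals of *Myl3* and *Myl7* exclude 0, the dashed line marks the median of all tested rows, 0.04, and the dotted line the median of the cardiomyocyte markers, 0.24.

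The order of the levels was the same in both genotypes, with *Myl2* highest and then *Myl4*, *Myl7*, *Myl3* and *Mylk3*. *Myl7* and *Myl3* are neighbors in this order whose means differed by less than the sum of their SDs in either genotype. The others were separated by more than that. Among the regulatory chains, *Myl7* made up 19.8% of the summed *Myl7* and *Myl2* RPKM in *Dio3+/+* and 20.8% in *Dio3-/-* hearts. Among the essential chains, *Myl4* made up 68.3% of the summed *Myl4* and *Myl3* RPKM in *Dio3+/+* and 64.8% in *Dio3-/-* hearts. The *Dio3-/-* minus *Dio3+/+* difference in the atrial share was thus 1.01 points for the regulatory and -3.44 points for the essential pair, of opposite sign. With all transcript rows of a gene summed, the latter was -2.26 points. These shares come from genotype means and were not tested, because the table does not tell how both genes of a pair vary together between hearts.

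**Figure D3:**
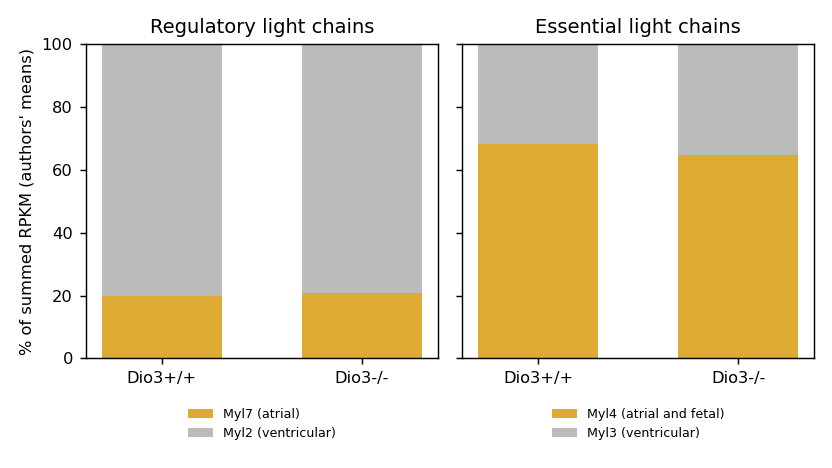
The vertical axis shows the percentage of summed RPKM from the authors' means, for *Myl7* and *Myl2* on the left and *Myl4* and *Myl3* on the right. The atrial regulatory chain takes 19.8% and 20.8% in *Dio3+/+* and *Dio3-/-* hearts, and *Myl4* takes 68.3% and 64.8%.

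Whether the members differed from each other in their genotype difference could not be tested. The log2 fold change of *Myl7* exceeded that of *Myl2* by 0.09. The standard error of this difference lies between 0.02 and 0.24, the difference and the sum of the standard errors of both genes. These are outer limits, and genes that vary fully together or fully opposite between hearts need not reach them. For *Myl3* over *Myl4* the difference was 0.22, with a standard error between 0.02 and 0.22, or 0.16 for genes that vary independently. The ratio of regulatory to essential light chain RPKM was 1.93 in *Dio3+/+* and 1.98 in *Dio3-/-* hearts. *Myl2* alone held 52.8% and 52.6% of the RPKM of the 4 light chains. Of the heavy chains, *Myh6*, the α myosin heavy chain, rose by 1.06 on the log2 scale (limma-adjusted *P* = 0.00125), and the ratio of regulatory light chain RPKM to the sum of *Myh6* and *Myh7* was 3.21 in *Dio3+/+* and 2.87 in *Dio3-/-* hearts.

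The spread between hearts was wider in *Dio3+/+* than in *Dio3-/-* hearts for all 5 genes. The CVs ranged from 0.14 to 0.18 in *Dio3+/+* hearts and from 0.06 to 0.10 in *Dio3-/-* hearts. The ratio of the CVs was 2.57 for *Myl2* and 1.4 for *Myl7*, the highest and the lowest of the 5. Over all gene symbols tested, the median CV was 0.09 in *Dio3+/+* and 0.06 in *Dio3-/-* hearts, and 65.4% had the lower CV in *Dio3-/-* hearts. Of the 1404 gene symbols with a mean above 50 RPKM, 13.1% had a CV of 0.14 or more in *Dio3+/+* hearts. The 12 cardiomyocyte markers had median CVs of 0.145 and 0.07, close to those of the members. These CVs were not tested against each other.

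**Figure D4:**
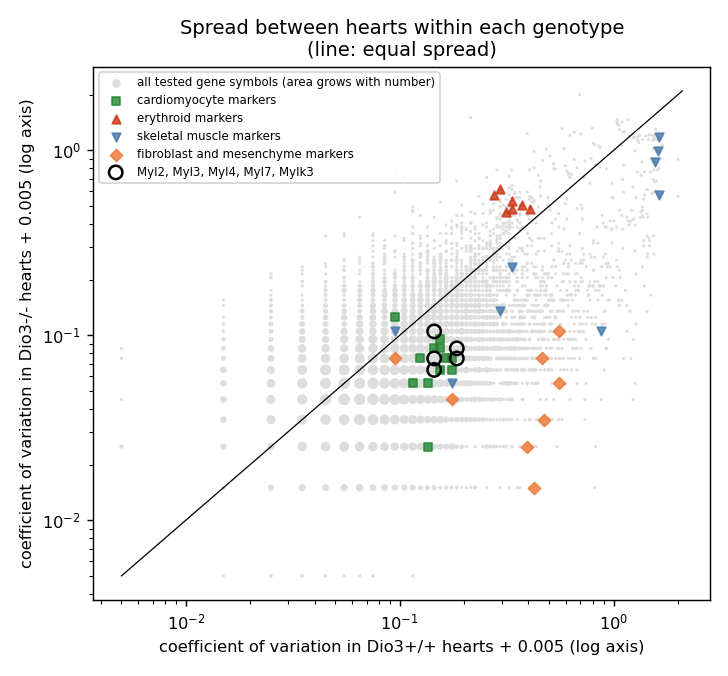
Both log axes show the CV within a genotype plus 0.005, *Dio3+/+* on the horizontal and *Dio3-/-* on the vertical axis, for all gene symbols tested in grey and for marker lists in color. The 5 open circles sit below the line of equal spread at 0.14 to 0.18 against 0.06 to 0.10, among the cardiomyocyte markers, while the 7 erythroid markers lie above the line.

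Other cardiomyocyte transcripts had similar ratios. All 12 cardiomyocyte markers had positive log2 fold changes, from 0.08 to 0.59 with a median of 0.24, and their summed RPKM was 9121 in *Dio3+/+* and 10698 in *Dio3-/-* hearts. None was at 0, and *Tnnt2*, cardiac troponin T, had means of 1212.43 and 1280.77 RPKM. Of these 12, 1 rose, *Ryr2*, the calcium release channel of the sarcoplasmic reticulum (log2 fold change 0.59, limma-adjusted *P* = 0.0231). Before adjustment, 8 of the 12 were under 0.05, all of them higher in *Dio3-/-* hearts. Of all gene symbols tested, 19.7% were under 0.05 before adjustment (15.2% higher) and 2.29% after it. With both genotypes centred on the median of these markers, the log2 fold changes of the members were 0.13 for *Myl3*, 0.09 for *Myl7*, 0.00 for *Myl2*, -0.085 for *Mylk3* and -0.10 for *Myl4*, so *Mylk3* and *Myl4* changed sign.

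Chamber markers were mixed. Their counts stand beside 2.29% of all gene symbols tested that passed by limma after adjustment and 19.7% under 0.05 before it. Of 12 atrial markers, 7 had positive and 5 negative log2 fold changes, with a median of 0.09 and a summed RPKM of 975 and 1108. *Stard10*, a lipid transfer protein gene, rose (log2 fold change 0.56, limma-adjusted *P* = 0.00699), and it was the only one of them with an adjusted *P* value under 0.05, against 6 before adjustment (5 higher and 1 lower). *Nppa*, atrial natriuretic peptide, had 744.63 and 861.33 RPKM (limma-adjusted *P* = 0.257). Of 10 ventricular markers, 8 had positive log2 fold changes with a median of 0.09, the summed RPKM was 1632 and 1652, and none had a limma-adjusted *P* value under 0.05 (1 had an unadjusted one, *Gja1*). *Irx4*, a transcription factor of the ventricles, had 22.17 and 23.76 RPKM.

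Markers of other cells are given as measured beside the members, with no test of their spread. For comparison, 2.29% of all gene symbols tested passed by limma after adjustment. Before adjustment 19.7% were under 0.05 (15.2% higher and 4.46% lower). The 7 erythroid markers all had negative log2 fold changes (median -1.39), with a summed RPKM of 37288 in *Dio3+/+* and 12753 in *Dio3-/-* hearts. Of these, *Hbb-bh1*, an embryonic β globin, fell (317.82 against 110.93 RPKM, log2 fold change -1.51, limma-adjusted *P* = 0.0468), and all 7 were under 0.05 before adjustment. All 9 liver markers had positive ones (median 1.70), with a summed RPKM of 23.2 and 124. By limma 0 of these 9 passed after and 9 before adjustment, but their median CV was 0.92 in *Dio3+/+* and 1.05 in *Dio3-/-* hearts. With SDs near the size of the means, these unadjusted *P* values are uncertain. The CVs of the liver markers ranged from 0.68 to 1.26 in *Dio3-/-* hearts, so their values were uneven between these hearts. Which hearts carried the liver difference could not be examined. For the 8 fibroblast and mesenchyme markers, the median log2 fold change was -0.29 and the median CV 0.44 in *Dio3+/+* against 0.045 in *Dio3-/-* hearts, and by limma 0 of them passed either before or after adjustment. The 8 endothelial, 6 epicardial and 5 tested smooth muscle markers had medians of 0.10, 0.14 and 0.19, and none of them had a limma-adjusted *P* value under 0.05 (2, 2 and 3 had an unadjusted one). Of 5 tested macrophage markers, *Lyz2* rose (log2 fold change 0.48, limma-adjusted *P* = 0.0214), while the other 4 had negative log2 fold changes and did not pass, and the median of the 5 was -0.11. RPKM is relative to all mapped reads, those of these cells included. Their part in the values of the light chains was not tested.

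The remaining light chains, the kinases and phosphatase that act on them and calmodulin were read from lists of 29 genes, of which 28 were found and 25 were above 1 RPKM in a genotype. By limma, 0 of the 25 passed after adjustment (the range was 0.0825 to 0.986), against 2.29% of all gene symbols tested. Before adjustment 9 were under 0.05, 7 higher and 2 lower in *Dio3-/-* hearts, against 19.7% (15.2% higher and 4.46% lower). The 2 lower ones, *Mylpf* and *Myl6b*, had wide CVs in *Dio3+/+* hearts (1.43 and 0.66), so their unadjusted *P* values are uncertain. Their median log2 fold change was 0.073, with 17 positive and 8 negative.

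Of 7 tested light chains of other muscles and of non-muscle cells, the fast skeletal pair had differences of opposite sign. *Myl1*, an essential light chain of fast skeletal muscle, had 146.98 RPKM (CV 0.12) in *Dio3+/+* and 181.88 RPKM (CV 0.05) in *Dio3-/-* hearts (log2 fold change 0.31, limma-adjusted *P* = 0.0851). *Mylpf*, the regulatory chain of fast skeletal muscle, had 25.27 RPKM with a CV of 1.43 in *Dio3+/+* and 5.6 RPKM (CV 0.34) in *Dio3-/-* hearts, so its spread exceeded its mean in *Dio3+/+* hearts (log2 fold change -2.08, limma-adjusted *P* = 0.212). *Myl6b* also had a wide CV, 0.66, with means of 2.53 and 1.22 RPKM. The myogenic factor gene *Myog* had 9.78 RPKM (CV 1.56) and 1.17 RPKM (CV 0.86), and the median CV of the 9 tested skeletal muscle markers, 2 with positive and 7 with negative log2 fold changes, was 0.87 in *Dio3+/+* and 0.23 in *Dio3-/-* hearts. *Tnni2*, fast troponin I, was the only one of these markers to fall with an adjusted *P* value under 0.05 (log2 fold change -0.53, limma-adjusted *P* = 0.0169).

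*Myl9*, the regulatory chain of smooth muscle, had 657.97 RPKM (CV 0.12) in *Dio3+/+* and 796.65 RPKM (CV 0.05) in *Dio3-/-* hearts (log2 fold change 0.28, limma-adjusted *P* = 0.126), a level near that of *Myl3*. *Myl12a*, listed under its older symbol, had 228.46 and 257.48 RPKM and the lowest adjusted *P* value of the 25 genes (log2 fold change 0.17, limma-adjusted *P* = 0.0825). *Myl12b* had 95.52 and 98.91 RPKM, and *Myl6*, the essential chain of non-muscle and smooth muscle myosin, 156.40 and 152.91 RPKM. *Myl12a* and *Myl12b* have near-identical coding sequences and only uniquely mapping reads were kept, so the levels of both are uncertain. *Myl10* was listed at 0 in *Dio3-/-* hearts and had 0.02 RPKM in *Dio3+/+* hearts.

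Among 8 tested kinases, *Mylk*, the smooth muscle and non-muscle light chain kinase, had 5.32 RPKM (CV 0.10) and 6.57 RPKM (CV 0.24), or 0.28 on the log2 scale (limma-adjusted *P* = 0.342). *Mylk4* had 3.06 and 2.24 RPKM, and *Mylk2*, the skeletal muscle kinase, was below 1 RPKM with 0.04 and 0.09 RPKM. By RPKM, *Mylk3* was thus the most abundant of the 4 MYLK genes in both genotypes. The kinase genes *Rock1* and *Rock2* had log2 fold changes of 0.14 and 0.17 (limma-adjusted *P* = 0.139 and 0.0985). *Dapk3*, *Cit*, *Cdc42bpa* and *Cdc42bpb* ranged from -0.04 to 0.09.

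For the 8 genes of the myosin phosphatase and its regulators, log2 fold changes lay between -0.02 and 0.31. *Ppp1cb*, the catalytic subunit, had 104.51 and 102.95 RPKM. The targeting subunit genes *Ppp1r12a* and *Ppp1r12b* had log2 fold changes of 0.16 and 0.26 (limma-adjusted *P* = 0.145 and 0.241), and *Ppp1r12b*, the form enriched in striated muscle, had 16.87 RPKM (CV 0.16) and 20.27 RPKM (CV 0.09). *Ppp1r12c* had a log2 fold change of 0.09. The inhibitor genes *Ppp1r14a*, *Ppp1r14b* and *Ppp1r14c* gave 0.31, 0.10 and 0.03. *Rhoa* had 161.36 and 161.07 RPKM with a CV of 0.02 in both genotypes. The calmodulin genes *Calm2* and *Calm3* had log2 fold changes of 0.013 and -0.0021, and *Calml4* was below 1 RPKM.

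**Figure D5:**
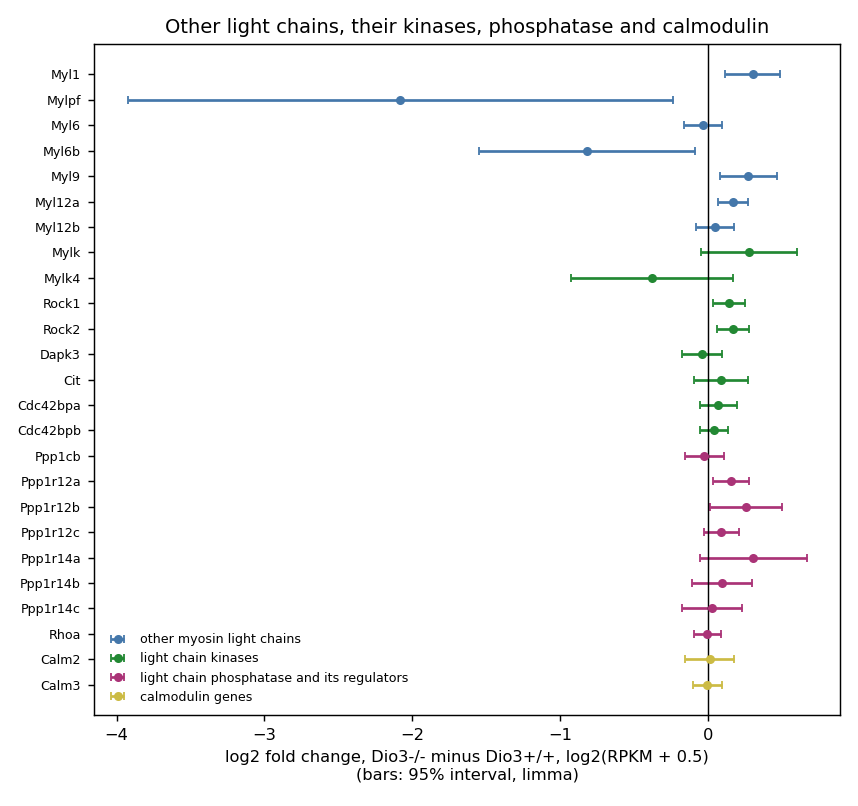
The horizontal axis shows log2 fold changes with 95% intervals from limma for the 25 tested genes of the light chain, kinase, phosphatase and calmodulin lists, colored by list. Most points lie near 0, the 2 calmodulin genes at 0.013 and -0.0021, and the widest intervals are those of *Mylpf* (-2.08) and *Myl6b* (-0.82).

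By their pair of genotype means alone, the genes nearest to the members were named. The distance is taken on the log2 RPKM scale over these 2 values, so likeness in level weighs as much as likeness in change. Nearest to *Mylk3* were *Hist1h1d*, *Hand2* and *Abce1* (distances 0.0023, 0.0061 and 0.025). Nearest to *Myl7* were *Atp5b*, *Aldoa* and *Hist1h2bl* (0.10 to 0.13), to *Myl4* *Hist1h4a*, *Hist1h2ap* and AK195788 (0.029 to 0.056), to *Myl3* *Mir715*, *Nppa* and *Hist1h2ak* (0.11 to 0.14), and to *Myl2* AK018753, *Gapdh* and *Eef1a1* (0.054 to 0.21). In GENCODE, *Ccdc63* overlaps *Myl2* and *Pth1r* overlaps *Myl3* on the opposite strand. The use of strand in counting is not given in the sources used here. *Ccdc63* had 2.50 and 3.09 RPKM and *Pth1r* had 17.07 and 14.74 RPKM. The 4 opposite-strand genes that overlap *Myl4* and the antisense gene at *Mylk3* were not found under those names, and *Myl7* overlaps none.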

How the data were processed

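Hearts of 4 *Dio3+/+* and 4 *Dio3-/-* fetuses were sequenced after ribosomal RNA removal. Per the study's Methods and the submitters' processing notes, reads were checked with FastQC and aligned with Novoalign (version 2.08), uniquely mapping reads were kept, and samples were scaled linearly to the smallest library. The table deposited by the authors holds genotype means for 51414 transcript rows, read here as RPKM, the unit of their filter. The deposited CV of each genotype is a ratio of SD to mean, rounded to 2 decimals. The authors' own fold changes and q values were not used. Samples were grouped by the genotype in the labels.

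The means were put on the log2(RPKM + 0.5) scale and their SDs derived from the CVs. A moderated test with a mean-variance trend (limma 3.58.1, R 4.3.3) was fitted on the 32703 rows above 1 RPKM in a genotype, with Benjamini-Hochberg adjustment over all of them. The log of a mean stands in for the mean of logs. The script was tested on simulated data. Each gene was read in its row with the highest average of both means. Genes named were the 5 members, the genes of the light chain, kinase, phosphatase and calmodulin lists, listed genes with an adjusted *P* value under 0.05, and for each member the 3 nearest genes. Other listed genes with values were picked after their values had been seen. Of the listed genes, 1 is not reported here. Members and lists were chosen with earlier results of these data known. Upstream sequences came from RefSeq, where all 5 genes matched. Python 3.11.15, numpy 2.4.6, pandas 2.3.3 and matplotlib 3.10.9 were used.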

Additional observations from a re-analysis of the deposited data

How the results depend on the processing

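No member had an adjusted *P* value under 0.05 in any of the 53 repeats over the 5 genes (from 0.112 to 1.00), which used other pseudocounts, filters, variance models, transcript rows, CV rounding, centring and Welch's test. Their sign was kept in 51 of them, but only centring and the choice of transcript row could change a sign. Filters, variance models, CV rounding and Welch's test leave the log2 fold change as it is, and a pseudocount cannot turn it. With centring on the cardiomyocyte markers, the sign counted as kept for *Myl2* was that of a log2 fold change of 0.00. Centring on the cardiomyocyte markers gave a log2 fold change of -0.10 for *Myl4* and -0.085 for *Mylk3*. The Welch alternative left 0 of the 5 under 0.05 after adjustment and 1, *Myl7*, before it. The number of called transcript rows was 703, with 431 without an expression filter, 319 with 1 row per gene, where fewer rows were tested, 69 with Welch's test, 394 centred on the median of all rows (79.7% higher in *Dio3-/-* hearts against 87.6%), 414 with raised CVs and 15423 centred on the cardiomyocyte markers, which shifts every gene down by 0.24 (1.81% higher). Beyond these constructions, the cause was not tested. The *Dio3-/-* minus *Dio3+/+* difference in the *Myl4* share of the essential pair, -3.44 points, was -2.26 points with all transcript rows summed and -2.81 points with the lowest rows, whereas *Myl2* and *Myl7* have 1 row each. No paired analysis was possible because the table holds genotype means only, and for the same reason no heart could be left out. Every value rests on 4 hearts per genotype, and no depth per sample is in the table.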

Other observations

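The genes that build the thick filament around the light chains differed among themselves. *Mybpc3*, cardiac myosin binding protein C, had 301.71 RPKM (CV 0.17) in *Dio3+/+* and 378.33 RPKM (CV 0.07) in *Dio3-/-* hearts, or 0.33 on the log2 scale (limma-adjusted *P* = 0.155), close to that of *Myl7*. *Mybphl*, a related gene of the atria, had 18.94 and 24.78 RPKM (log2 fold change 0.38, limma-adjusted *P* = 0.188). *Mybph*, a gene of skeletal muscle, had 6.54 RPKM with a CV of 1.48 in *Dio3+/+* and 0.70 RPKM (CV 0.76) in *Dio3-/-* hearts, and *Mybpc1*, the slow skeletal form, had 3.37 RPKM (CV 0.82) and 1.57 RPKM (CV 0.02). *Myh7b* had 4.93 and 5.74 RPKM. *Myh7*, the β myosin heavy chain, had 873.18 RPKM (CV 0.19) and 825.40 RPKM (CV 0.10), a lower mean in *Dio3-/-* hearts where its ventricular light chains *Myl2* and *Myl3* had higher ones (log2 fold change -0.08, limma-adjusted *P* = 0.794). Of the 7 genes of this list, *Myh6* was the only one with a limma-adjusted *P* value under 0.05. Before adjustment 4 of the 7 were under 0.05 by limma, *Myh6*, *Mybpc3* and *Mybphl* higher and *Mybph* lower in *Dio3-/-* hearts, against 19.7% of all gene symbols tested.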
